A study of Bos taurus with 12 samples.

Results

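Small RNA was sequenced from extracellular vesicles (EVs), the membrane-bound particles that cells release, in the blood plasma of beef heifers after superstimulation of the ovaries. The comparison was between high (SH) and low (SL) responders of the superstimulated cycle and covered 6 of the 12 libraries of the series, SH1 to SH3 and SL1 to SL3, chosen by their labels. MicroRNAs (miRNAs) were included when a group held a value above 0 in at least 2 of its 3 libraries, which was met by 201 of the 783 miRNAs listed. The other 6 libraries came from the same heifers in their preceding unstimulated cycle (UH and UL).

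All 6 heifers were cycling Charolais- or Limousin-cross *Bos taurus* females whose cycles had been synchronized with progesterone, gonadotrophin-releasing hormone and prostaglandin. In the superstimulated cycle each of them, high or low, received falling doses of follicle-stimulating hormone (FSH), prostaglandin and artificial insemination, and plasma was taken on Day 7. The groups differed in how many corpora lutea, the progesterone-secreting glands that form from ovulated follicles, were counted in the ovaries at slaughter. High responders were taken from the upper and low responders from the lower end of a larger group, so the groups do not stand for the heifers between. Within each group the library numbers run in the order of the number of corpora lutea. Total luteal weight runs in a different order, with SH2 the lowest of the high responders and SL1 the lowest of the low responders. Because the groups were defined by these ovarian counts, no relation between them and a miRNA was tested.

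A miRNA is a short RNA that guides silencing proteins to messenger RNAs, mainly through its seed, bases 2 to 8 from the 5′ end. Both strands of its hairpin precursor, the 5p and 3p arms, can be kept. Plasma EVs carry miRNAs from blood cells, vessel walls, liver, muscle and other tissues, and in the ovary miRNAs take part in follicle growth and in the formation of the corpus luteum. A level in plasma EVs therefore mixes sources. Fewer vesicles from a tissue and less RNA in each of its vesicles cannot be told apart.

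The sequences of the 11 miRNAs called different between SH and SL are shown first because the comparison turns on them. They are given 5′ to 3′ as listed in the deposited table, with T for U and with the seed in capitals. For a call, the study's own thresholds were kept, a log2 fold change of 1 or more in either direction together with p at or under 0.05 before adjustment. The 7 with lower levels in SH come first.
miR-17-5p: cAAAGTGCttacagtgcaggtagt
miR-206: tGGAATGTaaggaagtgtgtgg
miR-139: tCTACAGTgcacgtgtctccagt
miR-151-5p: tCGAGGAGctcacagtctagt
miR-181a: aACATTCAacgctgtcggtgagtt
miR-23b-5p: gGGTTCCTggcatgctgattt
miR-2285t: aGAATCTGgatgaactttttgg
miR-497: cAGCAGCAcactgtggtttgta
miR-877: gTAGAGGAgatggcgcaggg
miR-6517: tCAGGGTCcgtgagctcctcggc
miR-2284z: aAAAAAGTttgtttgggttttt
No 2 of these 11 share a seed. Those of 4 of them recur in other miRNAs that were tested, and these relatives are described with them below.

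Known miRNA reads, collapsed by unique molecular identifiers, numbered 38688, 21466 and 77433 in SH1, SH2 and SH3 and 32160, 43389 and 29497 in SL1, SL2 and SL3. SH2 was thus the shallowest and SH3 the deepest library. At least 1 read was found for 174, 169 and 205 miRNAs in the SH libraries and for 190, 203 and 174 in the SL libraries (exact permutation test, two-sided, p = 0.8; 3 against 3 cannot go below 0.1). Levels are given as normalized reads, which are reads scaled to the same depth with TMM (trimmed mean of M values) factors. A group of 3 libraries with 0 reads allows up to 21.8 reads per 1000000 known miRNA reads in SH and 28.6 in SL (3 reads in the group, counting error only).

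Of the 201 miRNAs, 11 were called (5.47%), of which 4 were higher (1.99%) and 7 lower (3.48%) in SH (limma on log2 of normalized reads + 1, two-sided). No Benjamini-Hochberg adjusted p fell below 0.05, the smallest being 0.434, and before adjustment 11 miRNAs were at or under 0.05. The median log2 fold change of all tested miRNAs was -0.08, with 93 above and 108 below 0. Counts of signs within lists of miRNAs below are to be read beside these. The 3 SH and 3 SL libraries did not overlap for 18 miRNAs (8.96%), 8 higher and 10 lower in SH, and all 11 called miRNAs were among these. Calls were made on the same libraries, which itself favours miRNAs whose groups do not overlap. For a miRNA without any difference between the groups, 3 against 3 libraries are separated with a probability of 0.1. With the deposited values, which carry no TMM factor, 4 miRNAs were called higher and 3 lower, all 7 among the 11, and miR-17-5p, miR-206, miR-151-5p and miR-181a lost their calls. Of the 11, 5 had a mean of at least 10 normalized reads, as did 107 of all tested, and these 5 were all lower in SH. Of these 5, miR-139 alone was also called with the deposited values. The remaining 6 rested on few reads, and in 5 of them one group had none at all.

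**Figure D1:**
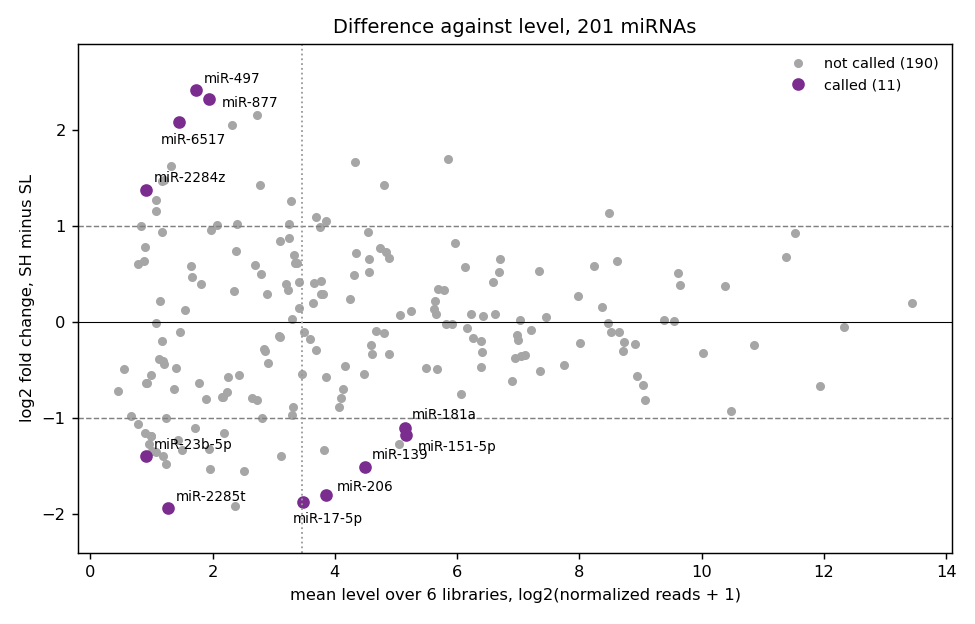
Log2 fold change of SH against SL (y axis) by mean level over the 6 libraries (x axis, log2 of normalized reads + 1) for 201 miRNAs. Purple points are the 11 called miRNAs, dashed lines mark a log2 fold change of 1 in either direction, and the dotted line marks 10 normalized reads, to the left of which all 4 miRNAs called higher in SH lie.

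miR-206 is a skeletal muscle miRNA that acts in myogenic differentiation. It stood at 4.03, 8.04 and 3.01 normalized reads in SH1, SH2 and SH3 and at 40.5, 12.8 and 12.4 in SL1, SL2 and SL3. All 3 SH libraries were below all 3 SL libraries, and SL1 stood apart above the rest. The mean was 5.03 ± 2.66 (SD, n = 3) in SH and 21.9 ± 16.1 (SD, n = 3) in SL, 4.36-fold lower in SH (log2 fold change -1.80 ± 0.71 SE; limma, adjusted p = 0.666). It was no longer called without SH1, SH3 or SL1, where the log2 fold change was -1.71, -1.55 and -1.26. miR-1, which has the same seed and is found in both skeletal and cardiac muscle, was the most abundant of them with 59.1 ± 37.9 in SH and 52.1 ± 7.23 in SL (SD, n = 3). Of the 7 listed muscle miRNAs 4 were tested, and miR-206 was the only one called.

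**Figure D2:**
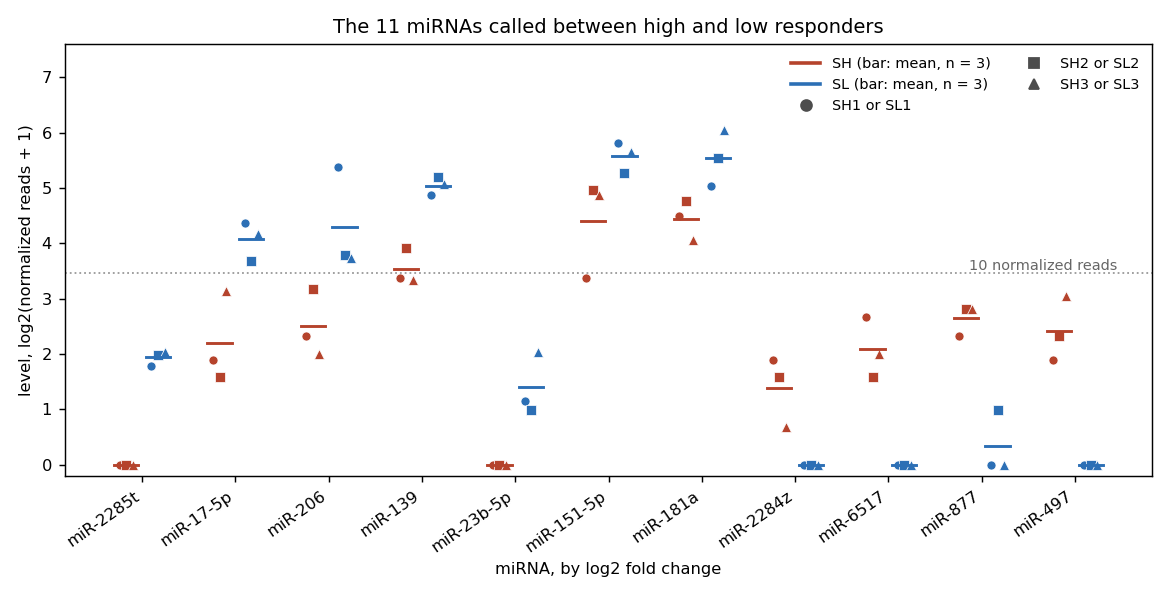
Level of the 11 called miRNAs in each library (y axis, log2 of normalized reads + 1), ordered along the x axis by log2 fold change. Red points are SH and blue points SL libraries, with the symbol giving the library number and the bar the mean (n = 3). For each miRNA all red points lie on one side of all blue points, which the choice of called miRNAs favours.

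miR-139, whose gene lies within PDE2A in the RefSeq annotation of the ARS-UCD2.0 assembly, had 9.40, 14.1 and 9.04 normalized reads in the SH libraries. The SL libraries held 28.2, 35.5 and 32.5. Both groups were tight, with 9.04 to 14.1 against 28.2 to 35.5 and means of 10.8 and 32.1 (n = 3). The level was 2.96-fold lower in SH (log2 fold change -1.50 ± 0.50 SE; limma, adjusted p = 0.513). Without SL2 it was not called (log2 fold change -1.43).

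miR-17-5p belongs to the miR-17-92 cluster, which promotes cell proliferation. It had 2.69, 2.01 and 7.83 normalized reads in the SH libraries and 11.8 to 19.6 in the SL libraries. The groups did not overlap, although SH3 with 13 reads came closer to SL than SH1 with 2 reads and SH2 with 1 read. The means were 4.18 ± 3.18 and 16.2 ± 3.98 (SD, n = 3), 3.87-fold lower in SH (log2 fold change -1.87 ± 0.70 SE; limma, adjusted p = 0.666). The call was lost without SH1, SH2, SL1 or SL3, where the log2 fold change was -1.71, -1.56, -1.72 and -1.82. Of the 14 miRNAs of this cluster and its paralogs in the table, 10 had a read and 7 were tested. Their median log2 fold change was -0.77, or -0.61 with miR-19a, at 0 in all SH libraries, set at its bound, and 6 of 7 were below 0. miR-17-5p was the only member called. Its seed was shared with miR-93 and miR-20a.
miR-93: cAAAGTGCtgttcgtgcaggta
miR-20a: tAAAGTGCttatagtgcaggtag
In both of these relatives the groups overlapped. miR-93 stood at 75.2, 109 and 181 in SH and 106, 148 and 139 in SL. miR-25, from the paralogous cluster that also holds miR-93, was the most abundant member of the list at 515 ± 414 in SH against 269 ± 27.8 in SL (SD, n = 3). SH3 alone held 989.

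miR-151-5p, encoded within PTK2, the gene of focal adhesion kinase, had 9.40, 30.1 and 28.3 normalized reads in the SH libraries. In the SL libraries it had 55.3, 37.4 and 49.5. SH1 was the low library of its group, and the SH2 and SH3 levels were close to that of SL2. The means were 22.6 ± 11.5 and 47.4 ± 9.09 (SD, n = 3), 2.09-fold lower in SH (log2 fold change -1.17 ± 0.53 SE; limma, adjusted p = 0.666). It was not called with median-of-ratios factors (log2 fold change -1.15), with TMM factors from the 6 libraries alone (-1.16), without SH1 (-0.66) or without SL1, SL2 or SL3 (-1.06, -1.33 and -1.13). The 3p arm of the same hairpin, miR-151-3p, differed by -0.01.
miR-151-3p: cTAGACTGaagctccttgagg
The log2 ratio of the 5p to the 3p arm averaged -4.05 with an SD of 0.75 in SH (n = 3) and -2.88 with an SD of 0.03 in SL (n = 3). No SH library reached an SL library. Of 11 hairpins with both arms tested, this was the only one to reach the smallest possible p (exact permutation test, two-sided, p = 0.1, adjusted over the 11 pairs 0.856). miR-151-5p had been chosen for its own difference, which this ratio contains, so the ratio is not a separate result.

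miR-181a, known for its part in lymphocyte development, had 21.5, 26.1 and 15.7 normalized reads in the SH libraries and 31.9, 45.3 and 64.9 in the SL libraries. The means were 21.1 ± 5.24 and 47.4 ± 16.6 (SD, n = 3), 2.25-fold lower in SH (log2 fold change -1.10 ± 0.47 SE; limma, adjusted p = 0.666). The call was lost without SH1, SH3, SL2 or SL3, where the log2 fold change was -1.13, -0.91, -1.10 and -0.85. miR-181b shares its seed and differs from it at 3 positions.
miR-181b: aACATTCAttgctgtcggtgggtt
Its groups did not overlap either, with 4.03, 2.01 and 4.22 in SH and 6.14, 7.88 and 21.6 in SL, but it was not called (log2 fold change -1.39 ± 0.74 SE; limma, adjusted p = 0.666). The genes of miR-181a and miR-181b neighbour each other at each of 2 loci. The other 2 listed members of the family had no read in these libraries.

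The remaining 2 miRNAs called lower in SH were absent from all SH libraries. miR-2285t, of a large ruminant family and encoded within FCGR2B, had 2, 3 and 2 reads in the SL libraries. It was 2.15-fold lower in SH at its bound (limma, adjusted p = 0.434). miR-23b-5p, the less abundant arm of a hairpin that lies beside those of miR-27b and miR-24-1, had 1, 1 and 2 reads in SL. It was 1.34-fold lower in SH at its bound (limma, adjusted p = 0.666). These bounds set the SL mean against 3 reads over the whole SH group. They leave out the counting error of the SL reads, so the true differences can be smaller. The 3p arm of miR-23b was present throughout, at 30.9 to 56.3 normalized reads in SH and 46.7 to 67.0 in SL, and was not called. miR-23b-5p lost its call without SH1, SH2, SH3 or SL2, and also with no filter, a pseudocount of 2, quality weights, voom or the replicate block. With SH at 0 its fitted log2 fold change, -1.39, is set by the pseudocount and was -0.87 with a pseudocount of 2 and -2.98 with the deposited values. By contrast, miR-2285t was called whichever library was left out. Leaving out an SH library could not change its fitted log2 fold change, since none of them held a read.

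The 4 miRNAs called higher in SH had few or no reads in SL, so their fitted log2 fold changes also depend on the pseudocount. For those with none, the bound sets the SH mean against 3 reads over the whole SL group. It leaves out the counting error of the SH reads, so the true differences can be smaller. miR-497 had 2, 2 and 12 reads in SH1, SH2 and SH3 and none in any SL library, or 2.69, 4.02 and 7.23 normalized reads against 0. It was 3.71-fold higher in SH at its bound (limma, adjusted p = 0.434) and was called whichever library was left out. Leaving out an SL library could not change its fitted log2 fold change, since none of them held a read. miR-497 belongs to the miR-15/16 family, which restrains the cell cycle, and its gene neighbours that of miR-195. All members of the family listed here share the seed of miR-497.
miR-195: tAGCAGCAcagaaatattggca
miR-15b: tAGCAGCAcatcatggtttaca
miR-16b: tAGCAGCAcgtaaatattggc
Of this family 6 of 6 listed members were tested, all 6 had a log2 fold change above 0 (5 of 6 with library sizes in place of TMM factors, where miR-16b was at -0.12), the median was 0.63, and only miR-497 was called. miR-195 stood at 26.9, 16.1 and 7.83 in SH and 7.37, 3.94 and 9.27 in SL, with SH3 inside the SL range. miR-16b, the most abundant, was level with 679 ± 139 in SH and 656 ± 22.9 in SL (SD, n = 3).

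miR-877 is a mirtron, made from a spliced intron of ABCF1 without Drosha. It had 3, 3 and 10 reads in SH and 1 read in SL2, with none in SL1 and SL3. The ratio of depth-scaled reads was 13.7, with an exact 95% counting interval of 2.12 to 573 (limma, adjusted p = 0.434). This interval pools the reads of each group and leaves out the variation between heifers. miR-6517, encoded within DNAAF2, had 4, 1 and 5 reads in SH and none in SL, 2.77-fold higher at its bound (limma, adjusted p = 0.434). Both miR-877 and miR-6517 were called whichever library was left out. For miR-6517, leaving out an SL library could not change the fitted log2 fold change. miR-2284z, of the same ruminant family group as miR-2285t, had 2, 1 and 1 reads in SH and none in SL. It was 1.41-fold higher at its bound (limma, adjusted p = 0.666). Its call was lost without SH1, SH2 or SL2, and with no filter, a pseudocount of 2, quality weights, voom or the replicate block. Of the other mirtrons and Drosha-independent miRNAs, miR-320a was the most abundant with 105 to 138 in SH and 115 to 142 in SL. Of 63 listed miR-2284 and miR-2285 miRNAs 12 had a read and 5 were tested. Among these 5, 1 was called in each direction, on the few reads given above. Of all tested miRNAs, 1.99% were called higher and 3.48% lower. The most abundant of the 63 listed, miR-2284x, was not called, at 37.1 ± 10.7 in SH and 50.9 ± 6.63 in SL (SD, n = 3).

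The same heifers in their unstimulated cycle were set beside these values. miR-206 was also lower in UH than in UL, with 4.40, 1.42 and 3.76 against 86.6, 17.2 and 11.9 normalized reads (log2 fold change -2.79 ± 0.84 SE). miR-6517 was also higher in UH, with 7.34, 1.42 and 4.51 against 0, 0.90 and 0 (log2 fold change 1.96 ± 0.56 SE). For both, the high and low responders were separated in either cycle. The low and high libraries of the cycles come from the same heifers, so the cycles are not independent. The log2 fold change had the same sign in both cycles for 4 of the 11 called miRNAs, these and miR-877 and miR-2284z, whose log2 fold changes between UH and UL were 0.20 and 0.01. Agreement in sign was not counted over all tested miRNAs, so these 4 have no share to stand beside. The difference between the cycles was itself tested as an interaction over 238 miRNAs, of which 12 were called (5.04%), with a smallest adjusted p of 0.847. Among these 12 were 8 of the 11 miRNAs, which were chosen for a difference that the interaction contains. With the heifer as a block 13 were called, with a smallest adjusted p of 0.70, and 10 of the 12 remained, 7 of the 8 among them, while miR-877 was not called. miR-139 shows the kind of pattern: 23.5, 66.2 and 18.1 in UH and 20.3, 28.0 and 22.7 in UL overlapped, and the log2 fold change of 0.37 ± 0.52 SE there stood against -1.50 in the superstimulated cycle.

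The libraries of SH were less alike than those of SL. Over the 107 miRNAs with a mean of at least 10 normalized reads, the log2 levels of SH2 had a Pearson correlation of 0.94 with SL2 and 0.95 with SL3, and of 0.84 with both SH1 and SH3. SH1 in turn had its highest correlation, 0.91, with SL1. SH3 had its highest, 0.893, with SL3, against 0.887 with SH1. Over these 107 each SH library was thus closest to an SL library. The 3 SL libraries correlated with each other at 0.90 to 0.94 and SH1 with SH3 at 0.89. Over all 201 tested miRNAs SH2 was closest to SL3 (0.927) and SH3 to SL1 (0.912). SH1 was there closest to SH3 (0.908, against 0.896 with SL1). These are correlations across miRNAs within pairs of libraries, given as a description. SH2 also had the fewest reads and a quality weight of 0.62 in limma, against 0.79 for SH1 and SH3 and 1.20 to 1.62 for the SL libraries. The part of depth in its position was not tested.

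Without SH2, 34 of 196 miRNAs were called (17.3%), 20 higher (10.2%) and 14 lower (7.14%) in SH. The smallest adjusted p was 0.0693, so none passed 0.05, and before adjustment 34 were at or under 0.05. Both remaining SH libraries lay on the same side of all SL libraries for 56 miRNAs (28.6%). Of the 34, 8 were also called with all 6 libraries, and 3 of the 11 were lost, namely miR-17-5p, miR-23b-5p and miR-2284z. Of the 34, 19 had a mean of at least 10 normalized reads, 11 higher and 8 lower. SH2 stood on the same side of SL as SH1 and SH3 for 4 of these 19, within the SL range for 7 and beyond it on the opposite side for 8. The 4 were miR-206, miR-139, miR-151-5p and miR-181a, the ones already described. The other 15 were not called with all 6 libraries. Choosing miRNAs by calls without SH2 itself favours those in which SH2 lies apart from SH1 and SH3. The positions of SH2 were not counted over all tested miRNAs.

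**Figure D3:**
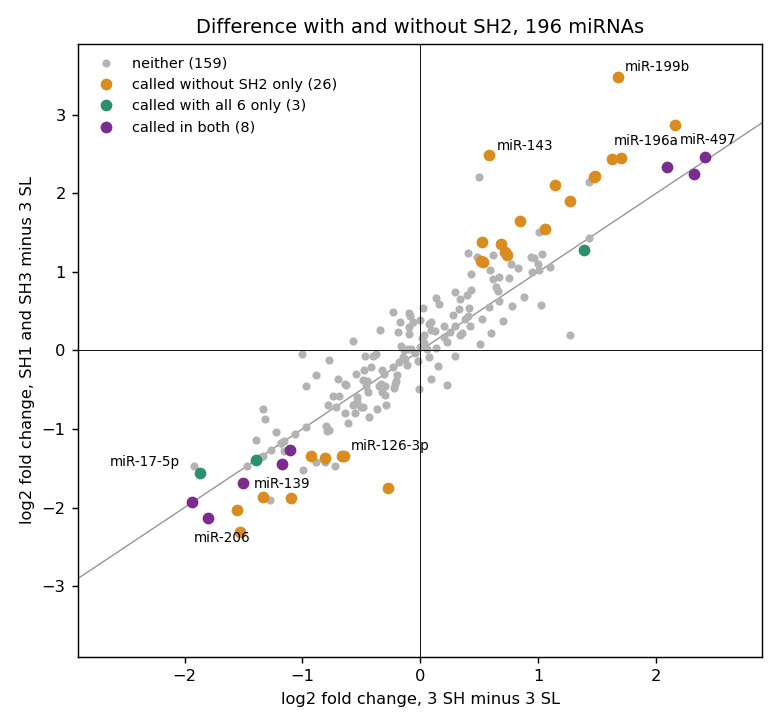
Log2 fold change of SH against SL with all 6 libraries (x axis) and without SH2 (y axis) for 196 miRNAs, with the line of equal values. Orange points, the 26 miRNAs called without SH2 only, lie mostly farther from 0 on the y axis than on the x axis, and miR-143 moves from 0.58 to 2.49.

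Sequences are shown for some of the miRNAs called without SH2 only, those described first, with the relatives in which their reads could be counted instead.
miR-143: tGAGATGAagcactgtagctcg
miR-199a-3p: aCAGTAGTctgcacattggtta
miR-199c: tACAGTAGtctgcacattgg
miR-199b: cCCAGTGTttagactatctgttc
miR-199a-5p: cCCAGTGTtcagactacctgtt
miR-196a: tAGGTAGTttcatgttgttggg
miR-196b: tAGGTAGTttcctgttgttggga
let-7c: tGAGGTAGtaggttgtatggtt
let-7b: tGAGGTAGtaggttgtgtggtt
let-7a-5p: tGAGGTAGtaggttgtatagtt
miR-126-3p: cGTACCGTgagtaataatgcg
miR-126-5p: cATTATTActtttggtacgcg
let-7c differs from let-7b at 1 position and from let-7a-5p at 1, and miR-196a from miR-196b at 1 within their common length. miR-199c shares a run of 19 bases with miR-199a-3p and begins a base earlier, which shifts its seed. The split of reads within each of these sets is uncertain.

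miR-143, which with its neighbour miR-145 marks smooth muscle, had 120 normalized reads in SH1 and 206 in SH3 but 2.01, from 1 read, in SH2. The SL libraries held 36.8, 20.7 and 26.3. SH2 was the lowest of all 6 libraries and SH1 and SH3 the highest. The log2 fold change was 0.58 ± 1.26 SE with SH2 (limma, adjusted p = 0.880) and 2.49 ± 0.43 SE without it (limma, adjusted p = 0.0693). Without SH1 or SH3 in place of SH2 it was -0.18 and -0.57. miR-145 did not follow it, with 5.37, 4.02 and 81.3 in SH and 11.1, 20.7 and 15.5 in SL. SH1 and SH2 were below all SL libraries and SH3 was above them, and the log2 fold change was -0.24 ± 0.97 SE with SH2 and 0.49 ± 0.99 SE without it (limma, adjusted p = 0.922 and 0.809).

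The miR-199 miRNAs, made from genes within the dynamin genes DNM1, DNM2 and DNM3 and abundant in mesenchymal cells, were also higher in SH1 and SH3 than in SH2. miR-199a-3p had 996, 86.4 and 416 normalized reads in SH and 451, 60.1 and 122 in SL. miR-199b had 75.2, 0 and 23.5 in SH and 13.5, 2.96 and 0 in SL. For both, SH1 was the highest library, SL1 was the highest of the SL libraries and SH2 lay within the SL range. Without SH2 the log2 fold change was 2.10 ± 0.77 SE for miR-199a-3p (limma, adjusted p = 0.223) and 3.49 ± 1.13 SE for miR-199b (limma, adjusted p = 0.200), from 1.14 and 1.67 with all 6 libraries. Over the mesenchymal list of 7 miRNAs, all tested, none was called with all 6 libraries and the median log2 fold change was 0.58 (1.28 with the deposited values), with 6 of 7 above 0. Without SH2, 4 of 7 were called higher, against 10.2% of all tested, and the median was 2.21, against 0.01 over all tested. The 4 were miR-143, miR-199b, miR-199a-3p and miR-199c. The last of these shares a run of 19 bases with miR-199a-3p, so they do not count as 4 separate members. The summed level of the list was 1269, 94.4 and 761 normalized reads in SH1, SH2 and SH3 and 558, 106 and 167 in SL1, SL2 and SL3. SH2 was thus the lowest of the 6 and SL1 was above the other SL libraries.

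miR-196a, from the HOX gene clusters that set position along the body axis, had 183, 20.1 and 53.6 normalized reads in SH and 62.6, 3.94 and 18.5 in SL. SH1 was highest and SL2 lowest, and SL1 exceeded SH3. The log2 fold change was 1.70 ± 0.95 SE with all 6 libraries (limma, adjusted p = 0.666) and 2.45 ± 0.999 SE without SH2 (limma, adjusted p = 0.245). Without SL1 it was 2.60 and was called. Of the 4 HOX cluster miRNAs miR-10b was the most abundant, with 184 ± 56.5 in SH and 242 ± 17.6 in SL (SD, n = 3). None of the 4 was called with all 6 libraries.

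let-7c, a member of the let-7 family that promotes differentiation, had 5986, 1101 and 3384 normalized reads in SH and 2458, 1105 and 1986 in SL. SH1 and SH3 were above all SL libraries, and SH2 was only just below the lowest of them, SL2. The log2 fold change was 0.68 ± 0.61 SE with SH2 (limma, adjusted p = 0.697) and 1.36 ± 0.48 SE without it (limma, adjusted p = 0.223). The 2 most abundant members did not follow let-7c. let-7b stood at 11952 ± 3045 in SH and 10250 ± 1468 in SL, and let-7a-5p at 5117 ± 1524 and 5146 ± 271 (SD, n = 3). Of 9 let-7 miRNAs tested none was called, and the median of 0.06 became -0.09 with library sizes in place of TMM factors. miR-125b, whose gene MIR125B-2 lies within the same annotated transcript span as that of let-7c, had 1140, 338 and 1362 in SH and 947, 379 and 502 in SL. It differed by 0.51 ± 0.56 SE with SH2 and by 1.14 ± 0.43 SE without it (limma, adjusted p = 0.223). miR-125a has the same seed as miR-125b. It had 312, 595 and 408 in SH and 325, 655 and 570 in SL.

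**Figure D4:**
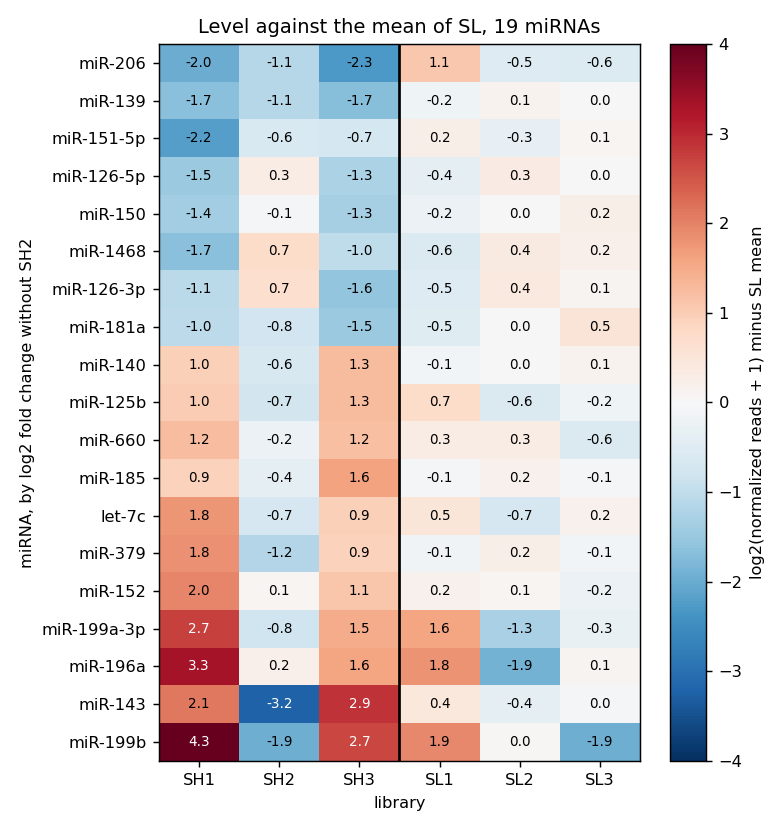
Level of the 19 miRNAs called without SH2 that had a mean of at least 10 normalized reads, in each of the 6 libraries (columns), as log2 of normalized reads + 1 minus the mean of the 3 SL libraries (colour and printed value). Rows run from the lowest to the highest log2 fold change without SH2. For 8 of the 19 the SH2 column lies beyond the SL libraries on the side opposite to SH1 and SH3, which the choice without SH2 favours.

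A further 5 of the 11 higher without SH2 had lower levels than let-7c and miR-125b. miR-140, encoded in WWP2 and known from cartilage, had 234, 76.4 and 292 normalized reads in SH and 111, 118 and 131 in SL. miR-379, of the imprinted DLK1-DIO3 locus, had 55.1, 6.03 and 29.5 in SH and 13.5, 17.7 and 13.9 in SL. Both were above SL in SH1 and SH3 and below SL in SH2. miR-152, encoded in COPZ2, had 32.2, 8.04 and 17.5 in SH and 8.60, 7.88 and 6.18 in SL. miR-185, encoded in TANGO2, had 25.5, 10.0 and 41.6 in SH and 12.3, 14.8 and 12.4 in SL. SH2 was below SL for miR-185 and inside the SL range for miR-152. miR-660, encoded in CLCN5 beside miR-502 and miR-362, had 45.7, 16.1 and 45.2 in SH and 23.3, 23.6 and 12.4 in SL. Without SH2 the log2 fold changes of these 5 were 1.12, 1.38, 1.54, 1.25 and 1.21 in the order given, with adjusted p of 0.160 to 0.245. With SH2 they were 0.53, 0.52, 1.06, 0.72 and 0.73, and miR-379 was at -0.12 when SH1 was left out instead.

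The lower side without SH2 was made up of miR-126, miR-150 and miR-1468, beside the 4 miRNAs that SH2 shared. miR-126 sits within EGFL7 and is the characteristic miRNA of endothelial cells, where it supports vessel integrity. Its 3p arm had 2013, 6878 and 1420 normalized reads in SH and 3023, 5613 and 4624 in SL. Its 5p arm had 230, 788 and 266 in SH and 500, 800 and 652 in SL. Both arms were below SL in SH1 and SH3, whereas SH2 was the highest library for the 3p arm and close to SL2, the highest, for the 5p arm. Without SH2 the log2 fold change was -1.34 ± 0.43 SE for the 3p arm (limma, adjusted p = 0.200) and -1.37 ± 0.33 SE for the 5p arm (limma, adjusted p = 0.160), from -0.67 and -0.81 with all 6 libraries. The endothelial list had 4 members, all tested and all below 0 (3 of 4 with median-of-ratios scaling or the deposited values), with a median of -0.61 and none called. Without SH2 the median was -1.01, against 0.01 over all tested, and 2 were called lower, against 7.14% of all tested, these being the 2 arms of the same hairpin. miR-221 and miR-222, the other members, differed by -0.02 and -0.55.

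miR-150, abundant in mature lymphocytes, had 690, 1706 and 722 normalized reads in SH and 1519, 1817 and 2108 in SL. SH2 lay within the SL range. The log2 fold change was -0.92 ± 0.44 SE (limma, adjusted p = 0.666) and -1.35 ± 0.33 SE without SH2 (limma, adjusted p = 0.160). It was the most abundant of the 8 leukocyte miRNAs, all tested, of which 4 were above and 4 below 0 (2 and 6 with library sizes), with a median of -0.15 (0.01 with the deposited values) and none called. miR-1468 had 177, 942 and 278 in SH and 381, 726 and 648 in SL, SH2 being the highest of the 6 libraries. Without SH2 it differed by -1.34 ± 0.39 SE (limma, adjusted p = 0.160) and with it by -0.65.

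The red-cell miRNAs were examined because rupture of red cells releases miR-451 and miR-486 into plasma. miR-486 had 1727, 2230 and 8318 normalized reads in SH and 975, 2221 and 2119 in SL, with SH3 alone far above the rest. miR-451 had 30.9, 18.1 and 43.4 in SH and 7.37, 38.4 and 15.5 in SL. The log2 ratio of miR-451 to miR-23a reads, which the study used to check for haemolysis, was -0.62, -1.77 and -1.10 in SH and -2.89, -1.73 and -2.54 in SL. SH was higher by 1.23, with SH2 and SL2 nearly equal (exact permutation test, two-sided, p = 0.2). None of the 3 erythroid miRNAs was called and all were above 0, with a median of 0.77. Their part in the other results was not tested. Across miRNAs, the log2 fold change had a Pearson correlation of -0.13 with the GC content of the mature sequence and of 0.04 with its length (201 miRNAs that share libraries, a description only). Over the 107 with a mean of at least 10 normalized reads these were -0.26 and -0.06.

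The remaining lists, which were chosen with earlier results of these data known, gave no further called miRNA with all 6 libraries. Their medians are set against that of -0.08 over all tested miRNAs. Of the 12 miRNAs listed for follicle and corpus luteum, 6 had no read in these libraries and 6 were tested. Their median was -0.25, or -0.11 with miR-132, which had no read in SH, at its bound. miR-21-5p was by far the most abundant of them, with 645, 237 and 310 normalized reads in SH and 548, 372 and 284 in SL, and the groups overlapped. The 4 liver and gut miRNAs were all above 0 (3 of 4 with library sizes in place of TMM factors) with a median of 0.63, and miR-122, the hepatocyte miRNA, had 63.1, 48.2 and 327 in SH and 94.6, 193 and 52.5 in SL. SH3 was thus high in miR-122 as in miR-486. Of the 6 epithelial miRNAs 4 were tested, with a median of -0.51, and miR-205 was the most abundant with 20.6 ± 5.45 in SH and 26.3 ± 7.54 in SL (SD, n = 3).

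Of the 43 miRNAs listed for the DLK1-DIO3 locus 28 had no read and 8 were tested, with a median of 0.18. Its most abundant member, miR-432, had 33.5 ± 12.9 in SH and 31.1 ± 8.77 in SL (SD, n = 3). The miR-30 family had a median of 0.10 over 6 tested miRNAs, which became -0.04 with library sizes in place of TMM factors, and miR-30d stood at 410 ± 168 and 566 ± 78.9. The miR-26, miR-29 and miR-148 families, with miR-152 among the last, had a median of 0.41 over 9, with miR-26a at 404 ± 146 in SH and 444 ± 56.4 in SL. The miR-99/100 and miR-125 families had a median of -0.06 over 5, or 0.09 with the deposited values. The miR-23/24/27 clusters had a median of -0.40 over 6, or -0.38 with miR-23b-5p at its bound, and miR-23b-5p was the only one called. The most abundant member there was miR-27b with 122 ± 40.9 and 82.5 ± 21.8. The list of miR-139, miR-204 and miR-211 had 3 tested members with miR-139 as the only called one and a median of -1.33. The 5 tested miR-2284 and miR-2285 miRNAs had a median of -0.48, or -0.15 with those at 0 in a group at their bounds.

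**Figure D5:**
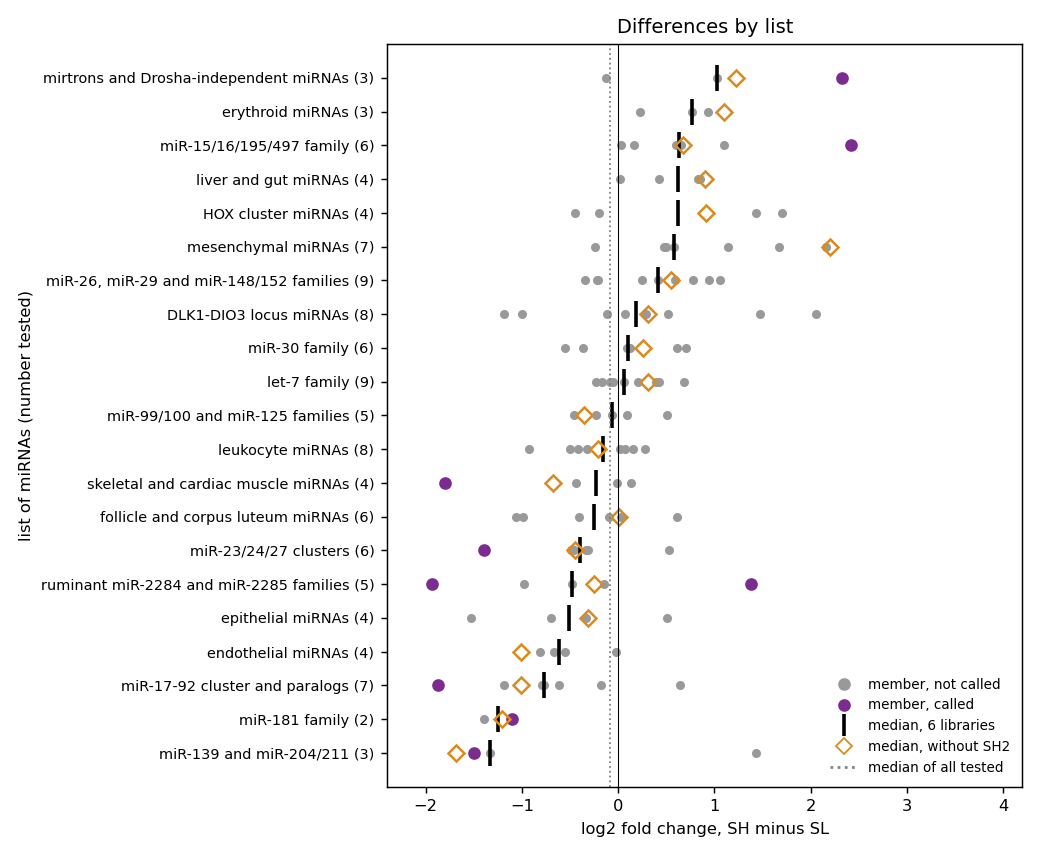
Log2 fold change of SH against SL (x axis) for the tested members of the 21 lists of miRNAs (rows, with the number tested). Purple points are called members, black bars the median with all 6 libraries, orange diamonds the median without SH2, and the dotted line the median of all 201 tested miRNAs (-0.08), and the mesenchymal list has the widest gap between its medians, 0.58 and 2.21.

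The most abundant miRNAs of the 6 libraries did not separate the groups when SH2 was included. Beside let-7b, let-7a-5p, let-7c, miR-126-3p, miR-486 and miR-150, the first 10 comprised let-7f, miR-423-5p, miR-342 and let-7i. let-7f stood at 1730 ± 487 in SH and 1990 ± 222 in SL, miR-423-5p at 1471 ± 244 and 1190 ± 473, miR-342 at 926 ± 245 and 1152 ± 265 and let-7i at 951 ± 621 and 653 ± 181 (SD, n = 3). None of the 10 was called with all 6 libraries, while let-7c, miR-126-3p and miR-150 were called without SH2. The 10 miRNAs with the most reads in each library, not always the 10 named here, took 69.9 to 75.6% of its known miRNA reads.

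Presence and absence were compared last. With at least 1 read in at least 2 libraries, 171 miRNAs were detected in SH and 182 in SL, most of them in both. At the depth of SH2, 160.2 and 169.4 would be expected. Of the 19 detected in SH and not in SL, 9 had no read in any SL library, and these were miR-218, miR-411c-5p, miR-487b, miR-497, miR-505, miR-2284z, miR-2487, miR-6120-3p and miR-6517. Of the 30 detected in SL and not in SH, 13 had no read in any SH library, among them miR-19a, miR-132, miR-299, miR-23b-5p and miR-2285t. The names other than those called were chosen after their values were seen. None of the 13 exceeded 5 reads and none of the 9 exceeded 12 reads in a library, so presence in one group alone rested on few molecules throughout.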

How the data were processed

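The authors isolated RNA from plasma EVs with an exoRNeasy kit and prepared libraries from it with a QIAseq kit that adds unique molecular identifiers. Per the study's methods and the submitters' processing notes, reads were trimmed and collapsed with Cutadapt, mapped to UMD3.1 with Bowtie2 2.2.2, annotated as perfect matches to miRBase and compared with edgeR after TMM scaling. The values the authors deposited are a score: the tags of a miRNA in 1000000 mapped reads, with decimals dropped. Every value above 0 was a whole multiple of the value of 1 read in its library after the cut (100% of values), so whole reads were calculated back. No column was left unused (0).

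TMM factors over the 12 libraries were coded from the published description and log2(normalized reads + 1) was fitted with limma 3.58.1 (R 4.3.3; lmFit, eBayes with trend) for SH and SL, without covariates, and likewise for the interaction with the cycle. A quasi-likelihood test had been planned for raw counts and was not used because the values are not counts. Groups came from the labels, and U and S libraries were paired by heifer, as the study sampled each heifer in both cycles. Deviations of the same heifer from the group means correlated at -0.05 to 0.21 (238 miRNAs). The fits were tested on simulated data. Tables and exact permutation tests were made with scipy 1.17.1, numpy 2.4.6 and pandas 2.3.3 in Python 3.11.15, and figures with matplotlib 3.10.9.

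Named with values were every miRNA called for SH against SL, every miRNA called without SH2 with a mean of at least 10 normalized reads, the 10 most abundant miRNAs, and of each of 21 lists the most abundant member. Relatives by seed, arm or locus and members of the detected sets were added after their values were seen. Members and lists were chosen with earlier results of these data known. Gene names at miRNA loci come from RefSeq (ARS-UCD2.0), without coordinates because the builds differ. Alternatives were other scalings, filters, pseudocounts, limma variants, blocks (the replicate number, or the heifer for the interaction) and leaving out each library.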

Additional observations from a re-analysis of the deposited data

Results flagged for a closer look

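The interaction of response and cycle was called for 8 of the 11 called miRNAs, beside 12 of all 238 tested (5.04%), and none passed adjustment (limma over 12 libraries, every adjusted p 0.847). The 11 had been chosen for a large difference between SH and SL, which the interaction contains. The interaction, as the log2 fold change of SH against SL minus that of UH against UL, was -2.18 for miR-17-5p (-1.87 against 0.31), -2.09 for miR-23b-5p (-1.39 against 0.70), -1.87 for miR-139 (-1.50 against 0.37) and -1.53 for miR-151-5p (-1.17 against 0.35). It was -1.49 for miR-181a (-1.10 against 0.39), -2.18 for miR-2285t (-1.94 against 0.25), 2.95 for miR-497 (2.42 against -0.53) and 2.12 for miR-877 (2.32 against 0.20). For miR-497, miR-877, miR-23b-5p and miR-2285t, with no or few reads in a group, the values depend on the pseudocount, and with 2 reads in place of 1 the interactions were 2.13, 1.59, -1.29 and -1.47. With the heifer as a block 7 of the 8 remained called and miR-877 did not. Groups of 3 libraries were too small to test single libraries for standing apart.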

How the results depend on the processing

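The number of called miRNAs, 11 with all 6 libraries, ranged from 8 to 34 when a library was left out (34 without SH2, 8 without SL2). It was 5 with at least 10 reads required, which tests 106 miRNAs, 7 with the deposited values and 18 when a single fit held the 4 groups. In the latter pair of settings the cause was not tested. Among the interactions, 4 were called with at least 10 reads required, and 8 to 18 when a heifer was left out. In SL 118 miRNAs had at least 5 reads in 2 libraries, against 119 in SH. When a library was left out, miR-143 ranged from -0.57 (without SH3) to 2.49 (without SH2), with -0.18 without SH1, and miR-379 from -0.12 (without SH1) to 1.38 (without SH2). Library sizes in place of TMM factors moved the median of all tested miRNAs by -0.14 and the deposited values by 0.14, and 7 of 46 named miRNAs changed sign under a scaling, all within 0.13 of 0 with TMM factors over the 12 libraries: miR-122, miR-432 and miR-16b fell below 0 with library sizes, and let-7a-5p, miR-1, miR-21-5p and miR-320a rose above 0 with the deposited values. The medians of 4 of 21 lists also changed sign. Log2 fold changes over a group at or near 0 moved with the pseudocount: miR-497 was 2.42, or 1.67 with a pseudocount of 2 and 4.54 with the deposited values, and miR-877 was 2.32, 1.67 and 4.07.

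The numbers 1 to 3 mark different heifers in SH and SL. Deviations of same-numbered libraries from their group means correlated at 0.22, 0.14 and -0.01 (201 miRNAs). Libraries of the same heifer correlated at only -0.05 to 0.21 (238 miRNAs), so such values cannot tell shared from separate animals. The replicate block called 14 miRNAs, 9 of them among the 11. With the heifer as a replicate block, 13 interactions were called against 12, of which 10 were shared, and no such count moved by more than 1.5 times.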
